A study of Homo sapiens with 15 samples.

Results

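The genes described here are those that stand in both of 2 deposited comparisons of senescent WI-38 cells, one of the compound GW8510 and one of the siRNA siSRC4, each set against the same PD45 control. The members were chosen by gene identifier alone, whatever the direction. There are 322 such genes among 4872 genes listed in any of the 4 deposited tables. They make up 17.5% of the 1845 genes in the GW8510 table and 25.2% of the 1280 genes in the siSRC4 table. Both comparisons use the same 3 control libraries, so the size of this overlap is given as a description. Each table holds only genes with an adjusted p under 0.05 and a fold of at least 1.5 in the authors' deposited values, which is 11.8% of the 15574 genes the authors tested for GW8510 and 8.77% of the 14598 they tested for siSRC4. Those shares are the rule that chose the members, and nothing is read from them. Just inside the limits, DNTTIP2 had a log2 fold change of -0.59 with GW8510 and AMDHD2 one of 0.59 with siSRC4 in the authors' deposited tables. The largest adjusted p-values among members there were 0.0479 for C1orf116 with GW8510 and 0.0498 for CCN4 with siSRC4. Genes just outside the limits were not analysed here.

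WI-38 is a line of human fetal lung fibroblasts that divides a limited number of times. All 3 groups used here are cells at PD45, read as 45 population doublings and described as senescent, and all received the transfection reagent lipo3000. The GW8510 group received GW8510 and NC, taken here to be a control siRNA without a target, and carries no DMSO label. The siSRC4 group received DMSO and siSRC, the same treatment label as a group titled siSRC2, and the titles are read as naming different siRNAs against SRC. The PD45 control received DMSO and NC. GW8510 and siSRC4 libraries therefore differ in compound, vehicle and siRNA at once, and these cannot be told apart. The labels give neither dose nor duration, and nothing in them ties the 3 libraries per group to different cultures. The p-values below then reflect library-to-library spread alone, which may be technical.

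SRC is a non-receptor tyrosine kinase that relays signals from integrins and growth factor receptors to the actin cytoskeleton, adhesion sites and gene expression. GW8510 is a small molecule described as blocking cyclin-dependent kinases, the enzymes that drive the cell cycle. Senescent fibroblasts have left the cell cycle for good and are known for secreting cytokines, growth factors and matrix proteases.

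Expression is the deposited normalised signal per gene and library, whose header names no unit such as TPM or FPKM, and read depth is unknown. Values joined by ± are the mean and SD over the 3 libraries of a group. SRC itself had 9.51, 11.1 and 11.8 with siSRC4, against 18.9, 20.5 and 19.9 in the PD45 control. Every siSRC4 library lay below every control library, at 0.546 of the control mean (two-sided exact permutation p = 0.1, the smallest that 3 against 3 allows). SRC is not in the GW8510 table. Of 12 fibroblast markers, 6 had a value in some table, between 5.46 and 3225 in the control, with VIM, COL3A1 and PDGFRA among them. Of 12 immune markers 1 had a value (CD68, 48.0) and of 9 endothelial markers 2, at 0.0533 and 7.39. Epithelial markers had values for 5 of 13 genes, led by KRT19 at 135, and smooth muscle and pericyte markers for 6 of 13, led by ACTA2 at 295. The other markers were not analysed here, and the part of other cell types in the results was not tested. In bulk RNA, fewer cells of a type and less RNA per cell cannot be told apart. Among genes lower in both tables, the median member stood 0.21 log2 units above its group mean in siSRC4 replicate 1 and 0.21 below it in siSRC4 replicate 3, which bears on several results below. The PD45 control libraries had the same order at smaller size, with medians of 0.10 in replicate 1 and -0.10 in replicate 3.

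The genes in both tables fell into classes by direction. By the authors' deposited values, 172 were lower with both GW8510 and siSRC4 and 54 were higher with both. The shared control libraries push both fold changes toward the same sign, so the number that went the same way is a description alone. The other 96 were opposed: 64 were lower with GW8510 and higher with siSRC4, and 32 were higher with GW8510 and lower with siSRC4. Over all tested genes the authors listed 4.59% as higher and 7.26% as lower with GW8510, and 3.91% as higher and 4.86% as lower with siSRC4. The median log2 fold changes in the authors' deposited tables were -0.82 with GW8510 and -0.79 with siSRC4 for genes lower in both, and 0.80 with GW8510 and 0.82 with siSRC4 for genes higher in both. For the first opposed class they were -0.93 with GW8510 and 0.88 with siSRC4, and for the second 0.85 with GW8510 and -1.01 with siSRC4. Of all members, 40 were past a fold of 2 in both tables, 19 of them lower in both, 7 higher in both and 7 in each opposed class. In 244 of 322 members the libraries of both treatments lay wholly outside the range of the control libraries, a share set in large part by the choice of members.

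**Figure D1:**
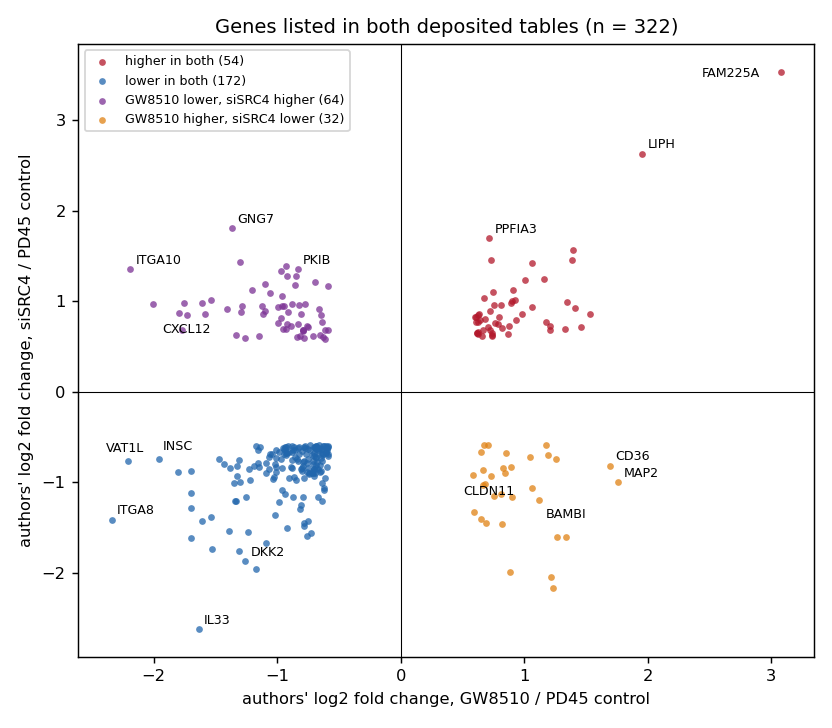
Authors' log2 fold change against the PD45 control with GW8510 (x axis) and with siSRC4 (y axis), 1 point per gene listed in both tables, coloured by direction. The empty bands around 0 are the fold limit of the tables. The lower left quadrant holds 172 genes, the upper right 54, the upper left 64 and the lower right 32, and FAM225A, the point farthest to the upper right, has control signals near 0.

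The 172 genes lower in both included secreted signals and their receptors. TNFRSF11B encodes osteoprotegerin, a secreted decoy receptor for the cytokine RANKL. It had 49.4, 40.2 and 51.8 with GW8510, 64.1, 52.6 and 56.2 with siSRC4 and 145, 123 and 127 in the PD45 control. All treated libraries were under the lowest control library. IL33, an alarmin cytokine, was low in every group, at 0.183 ± 0.085 with GW8510, 0.11 ± 0.0265 with siSRC4 and 0.603 ± 0.137 in the control (SD, n = 3 each), and its log2 fold changes in the authors' deposited tables were -1.64 with GW8510 and -2.62 with siSRC4. IL7R, the interleukin-7 receptor chain, had 21.9 ± 1.82 with GW8510, 17.2 ± 2.9 with siSRC4 and 37.6 ± 3.86 in the control. FGF7, a growth factor that fibroblasts make for epithelial cells, had 24.3, 19.4 and 34.8 with GW8510, 24.3, 14.9 and 15.9 with siSRC4 and 47.4, 46.7 and 42.1 in the control. The treated libraries again lay below every control library. KITLG, the ligand of the KIT receptor, averaged 12.3 ± 1.56 with GW8510, 12 ± 2.61 with siSRC4 and 19.9 ± 0.709 in the control. PDGFD, a platelet-derived growth factor, was at 0.527 ± 0.17 with GW8510, 0.627 ± 0.186 with siSRC4 and 1.1 ± 0.0907 in the control. Of the 36 genes on the list of cytokines and chemokines, 9 are in the GW8510 table, 7 in the siSRC4 table and 4 in both. Of these 4, IL33, IL7R and TNFRSF11B were lower in both and CXCL12 was opposed. The median log2 fold changes of the 4 in the authors' deposited tables were -1.49 with GW8510 and -1.18 with siSRC4. Over all 322 members, which mix every direction, they were -0.75 with GW8510 and -0.65 with siSRC4. Genes lower in both had medians of -0.82 with GW8510 and -0.79 with siSRC4. With 4 genes, among them IL33 at low signal, no difference in size is read from these medians. Of 53 growth factors and receptors 4 are members, FGF7, KITLG and PDGFD lower in both and ANGPTL4 opposed.

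Other secreted proteins were lower in both as well. DKK2, a secreted WNT antagonist, had 2.81, 2.59 and 2.27 with GW8510, 3.05, 1.69 and 0.87 with siSRC4 and 6.87, 5.51 and 6.35 in the control. The siSRC4 libraries spread widely but stayed below the control. POSTN, a matrix protein made by activated fibroblasts, had 1.33, 1.59 and 1.96 with GW8510, 2.83, 2.88 and 1.53 with siSRC4 and 4.23, 6.71 and 5.43 in the control. It is the only gene of the 12 fibroblast markers that stands in both tables.

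Ion channels and fatty acid carriers were also among the genes lower in both. TRPA1, a cation channel that opens on chemical irritants, had 4.36, 4.15 and 7.94 with GW8510, 7.59, 5.66 and 7.97 with siSRC4 and 17.2, 14.9 and 21 in the control. KCNMA1, the pore of the large-conductance calcium-activated potassium channel, had 20.4, 22.5 and 23 with GW8510, 17.7, 17.2 and 17.1 with siSRC4 and 33.7, 32.9 and 30.5 in the control. In both genes the 3 groups of libraries show the control highest with no treated library in its range. GABRA2, a GABA-A receptor subunit, averaged 2.52 ± 0.387 with GW8510, 2.56 ± 0.217 with siSRC4 and 4.92 ± 1.16 in the control. The list of 49 ion channels has 15 genes in the GW8510 table, 12 in the siSRC4 table and 4 in both, of which the fourth, KCNK6, was higher in both. FABP4, a cytoplasmic carrier of fatty acids, had 42.2, 41.8 and 32.9 with GW8510, 31.6, 28.1 and 27.9 with siSRC4 and 90.5, 92.5 and 88.9 in the control, so that every treated library was under every control library. Its relative FABP3 averaged 14.1 ± 4.97 with GW8510, 11.2 ± 2.25 with siSRC4 and 22.6 ± 4.63 in the control, and its highest GW8510 library, at 19.8, reached into the control range. The list of 48 solute carriers and ABC transporters has 12 genes in the GW8510 table, 15 in the siSRC4 table and 3 in both. These 3 were lower in both. ABCC4, which exports cyclic nucleotides and drugs, averaged 35.8 ± 2.72 with GW8510, 44 ± 9.22 with siSRC4 and 68 ± 8.68 in the control. SLC19A2 (thiamine) and SLC7A2 (cationic amino acids) had log2 fold changes of -0.60 and -1.09 with GW8510 in the authors' deposited tables. With siSRC4 they had -0.62 and -0.90. Off the list, the solute carrier SLC22A5 was higher in both, at 0.70 with GW8510 and 0.72 with siSRC4. SLC7A14, also off the list, was lower in both, at -0.81 and -1.25.

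Several intracellular regulators were lower in both while their siSRC4 libraries differed widely. HSP90AA1, the stress-inducible HSP90 chaperone on which SRC and many other kinases depend, had 244, 179 and 220.3 with GW8510, 427, 304 and 206 with siSRC4 and 556, 520.3 and 485 in the control. The siSRC4 libraries spread widely, and all treated libraries were below the control. ZEB1, a transcription factor that represses epithelial genes, had 15.2, 13.2 and 17.5 with GW8510, 19.6, 15.8 and 10.6 with siSRC4 and 28.1, 25.9 and 25.4 in the control. IL6ST, the shared gp130 receptor chain of the interleukin-6 family, had 36.4, 37.9 and 35.9 with GW8510, 59.4, 44.7 and 29.7 with siSRC4 and 71.2, 74.8 and 58.3 in the control. The siSRC4 libraries stood in the same order in all 3 genes, replicate 1 highest and replicate 3 lowest, and replicate 1 of IL6ST overlapped the control. ROCK2, a kinase that drives actomyosin contraction, and ARHGAP5, a GTPase-activating protein of the cytoskeleton, are the only members from the list of SRC signalling and its cytoskeletal partners. ROCK2 averaged 5.98 ± 0.82 with GW8510, 7.17 ± 2.21 with siSRC4 and 10.4 ± 1.92 in the control, and ARHGAP5 averaged 6.17 ± 0.714 with GW8510, 7.58 ± 2.75 with siSRC4 and 11.4 ± 2.32 in the control. In both, siSRC4 replicate 1 lay inside the control range. DUSP6, a phosphatase induced by and acting on ERK, had 21.6, 21 and 22.5 with GW8510, 30.4, 27 and 25.4 with siSRC4 and 46.1, 38.1 and 38.2 in the control, with no overlap between any of the groups.

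GCLC, the catalytic subunit of the first enzyme of glutathione synthesis, averaged 12.8 ± 0.783 with GW8510, 13.4 ± 2.41 with siSRC4 and 22 ± 1.98 in the control. ASNS, asparagine synthetase, averaged 6.43 ± 0.919 with GW8510, 9.26 ± 1.26 with siSRC4 and 14.4 ± 2.51 in the control. Neither gene's treated libraries reached the control. DDX60, an interferon-induced helicase, was the only interferon-list member, at 0.53 ± 0.191 with GW8510, 0.767 ± 0.296 with siSRC4 and 1.29 ± 0.166 in the control.

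Groups picked after their values were seen, and so given without a test, add chromosome and RNA proteins to the genes lower in both. SMC3 (cohesin), SMC4 (condensin), SMC6 (the SMC5/6 complex) and SMCHD1, which keeps the inactive X chromosome silent, had log2 fold changes between -0.94 and -0.86 with GW8510 and between -0.72 and -0.60 with siSRC4 in the authors' deposited tables. SMC3 had 3.58, 2.8 and 3.26 with GW8510, 5.66, 4.79 and 2.55 with siSRC4 and 6.78, 6.97 and 5.47 in the control, and siSRC4 replicate 1 lay inside the control range. The helicases DDX10, DDX50, DHX29 and ASCC3 had group means of 6.79 to 19.1 with GW8510, 9.74 to 19.5 with siSRC4 and 20.7 to 30.0 in the control. The spliceosome-associated proteins CWC22, CWC27 and CDC5L had log2 fold changes between -0.85 and -0.68 with GW8510 and between -0.64 and -0.59 with siSRC4 in the authors' deposited tables. PLCB4, a phospholipase C that G proteins activate, had 19.5, 14.5 and 13.2 with GW8510, 27.2, 22.9 and 16.7 with siSRC4 and 39.4, 33.5 and 28.7 in the control, with all treated libraries below the control. The related PLCB1 was lower in both as well, at 2.53 ± 0.356 with GW8510, 2.79 ± 0.329 with siSRC4 and 4.58 ± 0.223 in the control.

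The 54 genes higher in both were mostly of low signal, with a median control mean of 3.33, beside 8.19 for genes lower in both. FOSL2, a FOS-family subunit of the AP-1 transcription factor, was among the more abundant, with 25.2, 25 and 27.2 with GW8510, 25.4, 27.4 and 31.4 with siSRC4 and 16.6, 17.6 and 15.9 in the control. No treated library reached down to the control. PTPRF, a receptor tyrosine phosphatase of adhesion sites, had 59.8, 54.3 and 59.2 with GW8510, 66.1, 71.3 and 74.4 with siSRC4 and 37.9, 36.7 and 35.1 in the control. PIP4K2C, a phosphoinositide kinase, had 29, 26.8 and 28 with GW8510, 27.2, 29.6 and 28.3 with siSRC4 and 18.1, 17.9 and 18.3 in the control. In both genes the treated libraries were all above the control. FGFR4, a fibroblast growth factor receptor, had 6.46, 6.5 and 11.4 with GW8510, 6.27, 7.01 and 7.65 with siSRC4 and 3.49, 3.76 and 5.68 in the control. KCNK6, a background potassium channel, had 13.1, 12.8 and 13.5 with GW8510, 10.1, 11.5 and 11.4 with siSRC4 and 6.29, 6.35 and 6.21 in the control. SELPLG, the ligand of P-selectin, averaged 12.6 ± 0.712 with GW8510, 9.78 ± 1.93 with siSRC4 and 5.75 ± 0.723 in the control. The treated and control libraries of all these genes were apart.

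Members from the lists were spread over many roles. BHLHE40, a transcriptional repressor of the clock and hypoxia responses, averaged 7.93 ± 2.4 with GW8510, 7.56 ± 0.826 with siSRC4 and 4.69 ± 1.06 in the control. WNT9A, a WNT ligand, averaged 1.46 ± 0.139 with GW8510, 1.9 ± 0.0551 with siSRC4 and 0.85 ± 0.0781 in the control, and HAS2, a hyaluronan synthase, 0.76 ± 0.282 with GW8510, 0.903 ± 0.186 with siSRC4 and 0.37 ± 0.0819 in the control. Of epithelial markers MUC1, a membrane mucin, is the only member, at 4.39 ± 0.962 with GW8510, 3.35 ± 0.498 with siSRC4 and 1.8 ± 0.34 in the control. L1CAM, an adhesion molecule, had 5, 5.2 and 4.16 with GW8510, 2.24, 4.63 and 3.08 with siSRC4 and 2.82, 3.15 and 2.3 in the control, where siSRC4 and control libraries overlapped. HFM1, a helicase known from meiosis, was listed with an unusually high signal of 619, 979 and 582 with GW8510, 932, 819 and 589.7 with siSRC4 and 404, 493 and 473 in the control. All treated libraries were above the control, and how reads were assigned to it was not tested.

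ANKRD1, a cardiac ankyrin repeat protein and a standard target of YAP and TEAD factors, had 12.9, 10.2 and 7.34 with GW8510, 13.3, 11.6 and 9.67 with siSRC4 and 10.2, 6.67 and 4.93 in the control. The ranges overlapped with the control for both treatments, and replicate 1 was the highest library in every group. Its promoter is printed because it carries the elements that ANKRD1 is known for. It is the 250 bases before the start in RefSeq (GRCh38.p14, chr10:90921088-90921337, minus strand, printed 5′ to 3′ on the gene's strand), with matches in capitals to the TEAD element GGAATG at 220 and 128 bases upstream of the start and to the AP-1 element TGANTCA at 195 bases upstream.
ANKRD1: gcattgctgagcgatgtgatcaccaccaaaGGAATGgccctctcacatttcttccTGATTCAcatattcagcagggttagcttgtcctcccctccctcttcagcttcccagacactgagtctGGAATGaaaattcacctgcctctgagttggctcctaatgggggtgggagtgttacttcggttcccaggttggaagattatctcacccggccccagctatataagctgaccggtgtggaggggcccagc
Each of 5 motifs was searched on both strands of all 27305 promoters of this length in the RefSeq table. The AP-1 element TGANTCA was in 6.6% of them, the antioxidant response element core TGACNNNGC in 11.0%, the TEAD element GGAATG in 11.9%, the STAT element TTCNNNGAA in 6.78% and the E-box CACGTG in 6.49%. No matches overlapped in the windows printed here. A window was found for 242 of 322 members (75.2%), under the 80% needed for a comparison over the set, so that comparison is void. A match is a description of letters and does not show a bound site.

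The direct comparison asks, for genes that went the same way, whether GW8510 and siSRC4 left them at different levels. Most were not called different. For the 204 same-direction genes whose mean signal reached 1, the limma test on log2(signal + 1) called 14 different (6.86%), 11 lower (5.39%) and 3 higher (1.47%) with GW8510 than with siSRC4. The adjustment ran over all 291 genes in the fit, of which 101 were called (34.7%, with 10.7% higher and 24.1% lower with GW8510), and the opposed genes among them differ by construction. When p-values were adjusted over the same-direction genes only, an alternative chosen after seeing the data, 3 genes remained: VAT1L, INSC and ITGA8. The other 11 had adjusted p-values of 0.0668 to 0.221 that way. Their calls below rest on a threshold that the opposed genes relax, and the adjusted p-values printed are those over all 291 genes. Without adjustment 35 of the 204 had p under 0.05. Over each whole table, the authors' log2 fold change exceeded the log2 ratio of mean signals by a median of 0.12 for GW8510. For siSRC4 this offset was -0.04, which puts the 2 groups 0.16 log2 units apart. With the signals of each group rescaled by its own offset, 16 genes were called, 10 higher and 6 lower with GW8510. The balance of directions thus depends on the scaling, while 9 of the 14 genes were called both ways. Without siSRC4 replicate 3 the count was 38, 5 higher and 33 lower. The libraries of GW8510 and siSRC4 did not overlap in 33 of 172 genes lower in both (19.2%) and 19 of 54 genes higher in both (35.2%), beside 148 of 322 members (46.0%), which include every opposed gene.

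**Figure D2:**
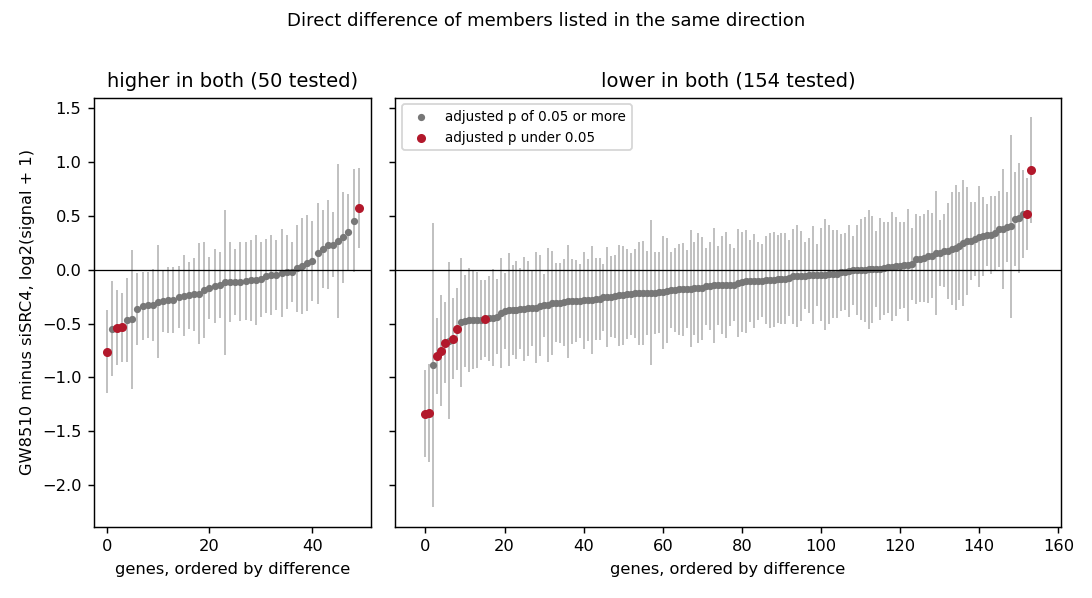
Direct difference, GW8510 minus siSRC4, on the log2(signal + 1) scale (y axis) for the 50 tested genes higher in both (left) and the 154 lower in both (right), ordered by size along the x axis, with 95% confidence intervals as bars and genes with an adjusted p under 0.05 in red. The medians are -0.11 for genes higher in both and -0.14 for genes lower in both, and most intervals cross 0. With rescaled signals, not drawn here, the medians are 0.018 for genes higher in both and -0.0015 for genes lower in both, so they depend on the scaling.

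The 3 genes that also passed over same-direction genes only were lower with both treatments and lowest with GW8510. VAT1L, a relative of the vesicle amine transport protein VAT1, had 2.58, 3.5 and 3.11 with GW8510, 10.2, 10.2 and 7.48 with siSRC4 and 18.6, 15.8 and 12.1 in the control. The 3 groups did not overlap. The difference was -1.34 log2 units (95% confidence interval -1.74 to -0.93; limma adjusted p = 9.83e-05). INSC, the human homologue of the fly spindle-orientation adaptor inscuteable, had 4.2, 2.21 and 3.06 with GW8510, 10.5, 8.01 and 9.41 with siSRC4 and 14.6, 13 and 13 in the control, again with 3 separate groups. Its difference was -1.33 (95% confidence interval -1.79 to -0.88; limma adjusted p = 0.00026). ITGA8, the integrin alpha chain that pairs with beta-1 to bind nephronectin and fibronectin, had 2.12, 1.94 and 2.19 with GW8510, 4.29, 3.98 and 4.89 with siSRC4 and 13.5, 10.1 and 9.45 in the control. All siSRC4 libraries were above all GW8510 libraries and below all control libraries. The difference was -0.80 (95% confidence interval -1.16 to -0.45; limma adjusted p = 0.00159).

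The promoters of these 3 genes are shown because the genes keep their call under the stricter adjustment. They are the 250 bases before each start in RefSeq (GRCh38.p14), printed 5′ to 3′ on the gene's strand: VAT1L at chr16:77788314-77788563 (plus), INSC at chr11:15112174-15112423 (plus) and ITGA8 at chr10:15719923-15720172 (minus). Capitals mark the 1 match found, an AP-1 element TGANTCA at 67 bases upstream of the INSC start.
VAT1L: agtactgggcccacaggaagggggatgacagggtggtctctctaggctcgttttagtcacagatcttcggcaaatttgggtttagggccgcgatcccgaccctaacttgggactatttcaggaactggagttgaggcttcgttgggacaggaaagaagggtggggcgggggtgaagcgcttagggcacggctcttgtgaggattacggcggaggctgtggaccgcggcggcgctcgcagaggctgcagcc
INSC: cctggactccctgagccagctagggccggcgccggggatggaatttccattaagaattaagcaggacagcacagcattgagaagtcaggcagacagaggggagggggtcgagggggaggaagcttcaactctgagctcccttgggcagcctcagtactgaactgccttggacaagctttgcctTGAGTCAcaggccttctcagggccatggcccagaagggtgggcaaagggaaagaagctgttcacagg
ITGA8: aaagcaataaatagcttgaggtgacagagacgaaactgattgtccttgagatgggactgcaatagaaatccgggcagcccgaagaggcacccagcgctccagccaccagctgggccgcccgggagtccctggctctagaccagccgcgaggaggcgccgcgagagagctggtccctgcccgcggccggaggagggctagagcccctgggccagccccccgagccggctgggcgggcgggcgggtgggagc
The other motifs were not found as these letters in any of the 3 windows.

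Of the 11 genes called over the whole fit alone, RGS5, a regulator of G-protein signalling known from pericytes, had 3.94, 2.68 and 3.34 with GW8510, 6.47, 8.63 and 4.22 with siSRC4 and 11.1, 10.8 and 7.58 in the control. Its difference was -0.75 (95% confidence interval -1.27 to -0.23; limma adjusted p = 0.0261), and it was not called with rescaled signals. The siSRC4 libraries were above the GW8510 ones and overlapped the control. RGS5 is also on the list of smooth muscle and pericyte markers. TRHDE, a membrane peptidase that degrades thyrotropin-releasing hormone, had 11.8, 10.9 and 9.37 with GW8510, 20.7, 18.6 and 14.2 with siSRC4 and 26.2, 23.3 and 23.2 in the control, a difference of -0.68 (95% confidence interval -1.05 to -0.30; limma adjusted p = 0.00719). LRRN3, a leucine-rich repeat membrane protein of neurons, had 8.2, 6.02 and 7.34 with GW8510, 13.7, 11.2 and 10.4 with siSRC4 and 19.7, 21.8 and 19.8 in the control, a difference of -0.64 (95% confidence interval -1.01 to -0.27; limma adjusted p = 0.0102). In both genes the 3 groups were separate, with GW8510 lowest. DDX10, a helicase of ribosome assembly, had 6.92, 7.05 and 6.39 with GW8510, 11.3, 9.71 and 8.19 with siSRC4 and 26.9, 23.9 and 20.4 in the control. Its difference of -0.45 was near the threshold (limma adjusted p = 0.0494) and was not called with rescaled signals.

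Other genes passed the threshold of the whole fit with siSRC4 further from the control. CHN1, a chimaerin that switches off RAC, had 33.4, 32.7 and 39.3 with GW8510, 28.4, 21.6 and 22.9 with siSRC4 and 67.4, 65.5 and 60.0 in the control, so that siSRC4 libraries were lowest and the 3 groups separate. The difference was 0.52 (95% confidence interval 0.18 to 0.86; limma adjusted p = 0.0186). ZFP1, a zinc finger protein, had 9.5, 6.28 and 4.68 with GW8510, 2.96, 2.89 and 3.12 with siSRC4 and 8.94, 8.24 and 5.74 in the control. GW8510 and control libraries overlapped, although the authors' deposited table lists ZFP1 as lower with GW8510 at -0.59, and the difference was 0.92 (95% confidence interval 0.43 to 1.42; limma adjusted p = 0.00569). Among genes higher in both, PPFIA3, the scaffold protein liprin-alpha-3, had 3.75, 2.46 and 3.21 with GW8510, 5.89, 6.04 and 5.93 with siSRC4 and 2.53, 2.14 and 2.22 in the control. GW8510 libraries overlapped the control and siSRC4 libraries did not, with a difference of -0.76 (95% confidence interval -1.15 to -0.37; limma adjusted p = 0.00428). CLN8, which carries lysosomal enzymes out of the endoplasmic reticulum, had 8.11, 8.3 and 9.28 with GW8510, 14.2, 12 and 12.4 with siSRC4 and 8.96, 7.55 and 7.53 in the control, a difference of -0.53 (limma adjusted p = 0.0117), and it was not called with rescaled signals. Its GW8510 and control libraries overlapped, although the authors' deposited table lists CLN8 as higher with GW8510 at 0.63. LIPH, a lipase that makes lysophosphatidic acid and was named after its values were seen, had 2.36, 1.85 and 1.83 with GW8510, 3.25, 3.38 and 3.46 with siSRC4 and 0.45, 0.36 and 0.74 in the control, a difference of -0.54 (limma adjusted p = 0.0187), and it was not called with rescaled signals. Only TUFT1, tuftelin, was called higher with GW8510 among genes higher in both, at 29.9, 27.7 and 35 with GW8510, 16.4, 21.4 and 23.8 with siSRC4 and 10.7, 11.6 and 14.2 in the control, a difference of 0.57 (95% confidence interval 0.20 to 0.94; limma adjusted p = 0.0182). The last of the 14 is a gene without a name in the file. The count among genes higher in both was 4 of 50, and 2 without GW8510 replicate 1 or without GW8510 replicate 3. Among genes lower in both it was 10 of 154, and 33 without siSRC4 replicate 3. Of the 10, GW8510 lay further from the control in 8, and of the 4, siSRC4 did in 3. With rescaled signals this turned: GW8510 lay further in 5 of 13 genes called lower in both, and siSRC4 in 1 of 3 called higher in both, so which treatment moved more of these genes further is not settled.

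**Figure D3:**
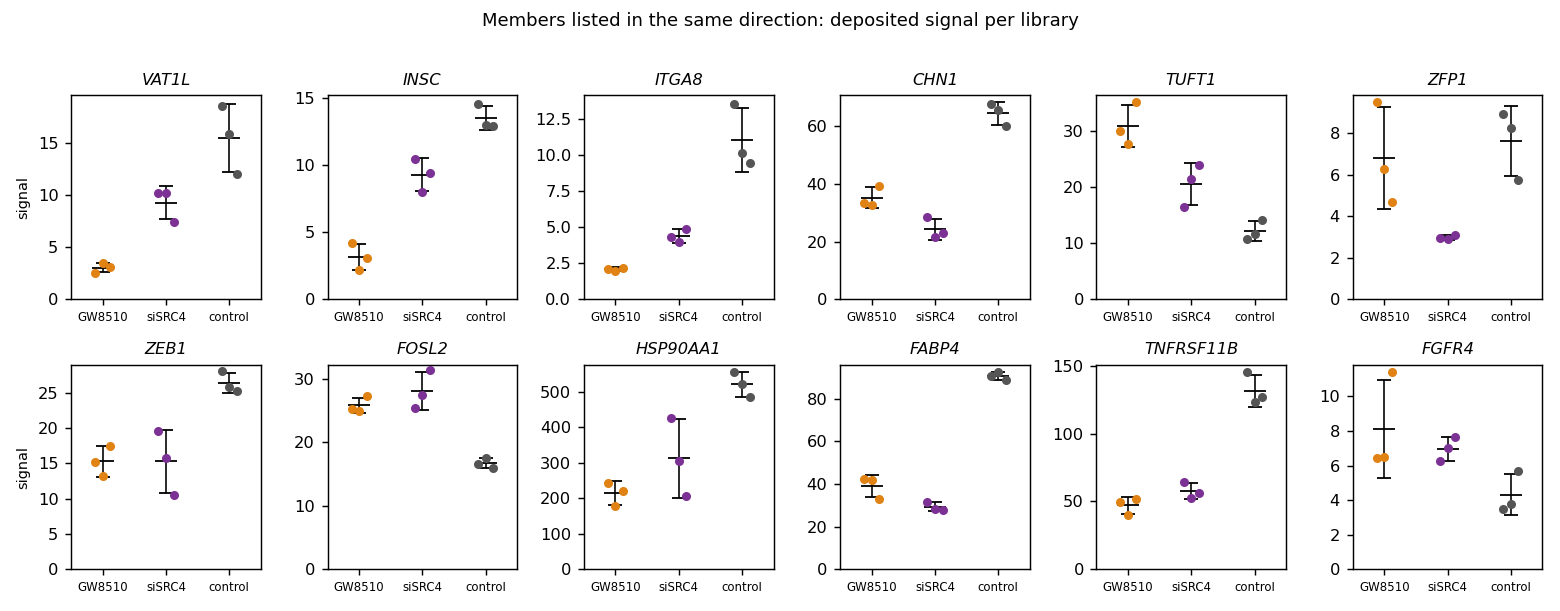
Deposited signal per library (points) with the group mean and SD (bars, n = 3) for 12 genes listed in the same direction, GW8510 left, siSRC4 middle and PD45 control right in each panel. In VAT1L, INSC and ITGA8 the 3 groups are separate with GW8510 lowest, and in ZEB1 and FOSL2 the GW8510 and siSRC4 libraries overlap.

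For other members the interval of the difference shows what these libraries could not separate. FOSL2 differed by -0.11 (95% confidence interval -0.42 to 0.19; limma adjusted p = 0.588) and PIP4K2C by -0.021 (95% confidence interval -0.30 to 0.26; limma adjusted p = 0.928). WDR19, a protein of transport within cilia, had 3.98, 4.19 and 4.52 with GW8510, 3.93, 4.41 and 4.29 with siSRC4 and 7.13, 7.42 and 7.21 in the control, a difference of 0.0054 (95% confidence interval -0.35 to 0.36; limma adjusted p = 0.991). ZEB1, with a difference of 0.03, had the wider interval of -0.43 to 0.49, with siSRC4 libraries that spread. HSP90AA1 differed by -0.49 (95% confidence interval -1.09 to 0.11; limma adjusted p = 0.201), so a level lower by about a log2 unit with GW8510 lies inside its interval. Without siSRC4 replicate 3 HSP90AA1 was called, at -0.76, as were ABCC4, ARHGAP5, DUSP6, IL6ST and POSTN, all lower with GW8510, and SELPLG, higher with GW8510, at differences between -0.56 and 0.49 log2 units. FABP4 differed by 0.40 (95% confidence interval 0.071 to 0.72; limma adjusted p = 0.0598). Its GW8510 libraries were all above its siSRC4 libraries, and it was called with rescaled signals, with the replicate number as a block, and with all 9 libraries, the control included, in the fit. KCNMA1, IL7R and SELPLG were called with rescaled signals as well, all higher with GW8510. ASNS, at -0.46 (95% confidence interval -0.84 to -0.094; limma adjusted p = 0.0532), was called with the block and with all 9 libraries in the fit.

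The 96 opposed genes had adhesion and matrix members lower with GW8510 and higher with siSRC4. The difference between the treatments in these genes follows from how they are listed, so it is described without a test. Over the 59 such genes in the fit it ran from -2.16 to -0.98 log2 units with a median of -1.54, and over 28 genes of the reverse class from 0.81 to 2.17 with a median of 1.33. Of 53 integrins, cadherins and other adhesion genes, 12 are in the GW8510 table, 15 in the siSRC4 table and 6 in both. Of these 6, ITGB3, ITGA11, ITGA10 and CDH4 were opposed in this way, ITGA8 was lower in both and L1CAM higher in both. ITGB3, the integrin beta chain of the vitronectin receptor, which signals through SRC, had 6.31, 6.85 and 5.38 with GW8510, 25.1, 25.2 and 20.8 with siSRC4 and 15.8, 14.5 and 14.3 in the control. ITGA11, a collagen-binding integrin chain of fibroblasts, had 20.5, 21.6 and 21.8 with GW8510, 53.8, 59.2 and 47 with siSRC4 and 34.7, 35.3 and 29.2 in the control. In both genes the control lay between the treatments with no overlap. ITGA10, another collagen-binding chain, was low in all groups, with 0.23, 0.15 and 0.21 with GW8510, 2.75, 2.18 and 1.43 with siSRC4 and 0.81, 0.74 and 0.7 in the control. CDH4, R-cadherin, averaged 2.32 ± 0.211 with GW8510, 8.13 ± 0.724 with siSRC4 and 4.38 ± 0.198 in the control. Of 58 collagens and matrix genes, 15 are in the GW8510 table, 12 in the siSRC4 table and 3 in both. These 3 fell in different classes: POSTN was lower in both, HAS2 higher in both and P4HA3 opposed in this way. P4HA3, a prolyl hydroxylase that modifies collagen, averaged 0.783 ± 0.153 with GW8510, 4.31 ± 0.82 with siSRC4 and 1.81 ± 0.184 in the control. LAMA1, a laminin chain named after its values were seen, averaged 7.07 ± 0.327 with GW8510, 21.5 ± 2.09 with siSRC4 and 12.8 ± 1.69 in the control. ITGB3, ITGA11, ITGA10, CDH4, P4HA3 and LAMA1 kept the same order of group means.

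Some secreted proteins were also lower with GW8510 and higher with siSRC4. CXCL12, a chemokine that binds CXCR4, had 1.04, 0.69 and 1.05 with GW8510, 7.39, 5.89 and 4.45 with siSRC4 and 3.58, 3.23 and 2.67 in the control. ANGPTL4, an inhibitor of lipoprotein lipase, had 46.8, 44.3 and 31.8 with GW8510, 146, 153 and 119 with siSRC4 and 86.4, 90.8 and 68.3 in the control. AGT, angiotensinogen, had 0.74, 1.17 and 0.7 with GW8510, 7.51, 5.01 and 4.15 with siSRC4 and 3.64, 2.83 and 2.57 in the control. Each had the lowest values with GW8510 and the highest with siSRC4, without overlap. As ratios of mean signals, CXCL12 was 6.38-fold and AGT 6.39-fold lower with GW8510 than with siSRC4. GPNMB, a glycoprotein of lysosomes and the cell surface, averaged 3.12 ± 0.456 with GW8510, 13.5 ± 3.96 with siSRC4 and 8.37 ± 2.52 in the control, with siSRC4 replicate 3 inside the control range.

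Among intracellular proteins PBXIP1, which binds PBX transcription factors, had 36.1, 35.6 and 35.8 with GW8510, 167, 179 and 147 with siSRC4 and 84.5, 82 and 81 in the control. The 3 groups were far apart and tight. KRT17, a keratin, had 4.28, 3.76 and 2.76 with GW8510, 20.2, 22.6 and 14.2 with siSRC4 and 12.4, 9.93 and 7.09 in the control. PLA2G4C, a phospholipase A2, had 4.24, 3.47 and 3.18 with GW8510, 16.7, 16.5 and 17.7 with siSRC4 and 4.38, 6.61 and 6.39 in the control, and PKIB, an inhibitor of protein kinase A, had 4.18, 5.02 and 2.2 with GW8510, 27.1, 18.9 and 10.9 with siSRC4 and 7.01, 7.89 and 5.58 in the control. GW8510 libraries were below the control in all 3 genes, and siSRC4 libraries above it. The metallothionein MT1X, which binds zinc and other metals, averaged 35.5 ± 1.15 with GW8510, 117 ± 25.3 with siSRC4 and 72.7 ± 6.18 in the control. MT1L, at 29.5 ± 5.33 with GW8510, 102 ± 17 with siSRC4 and 59.1 ± 14.1 in the control, is a near copy of it, and reads may be split between them. CPT1B, the muscle form of the enzyme that admits fatty acids to mitochondria, averaged 1.09 ± 0.557 with GW8510, 6.63 ± 1.46 with siSRC4 and 3.82 ± 1.09 in the control.

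Membrane and trafficking proteins complete the opposed class. CNIH3, an auxiliary subunit of AMPA receptors, had 3.03, 3.94 and 3.41 with GW8510, 24, 20.1 and 12.5 with siSRC4 and 12.4, 11.7 and 10.1 in the control. KCNN2, a small-conductance potassium channel, averaged 3.2 ± 0.484 with GW8510, 12.4 ± 0.622 with siSRC4 and 6.59 ± 0.949 in the control, and KCNAB2, a potassium channel beta subunit, 4.54 ± 0.295 with GW8510, 12.3 ± 1.67 with siSRC4 and 8.14 ± 1.63 in the control. ADORA1, an adenosine receptor, averaged 1.29 ± 0.641 with GW8510, 6.1 ± 0.991 with siSRC4 and 3.95 ± 1.1 in the control. MLPH and RAB26, both of vesicle transport, had log2 fold changes of -1.30 and -1.61 with GW8510 and 0.88 and 0.98 with siSRC4 in the authors' deposited tables. Families were split in places, as seen after the values were known: the carbonic anhydrases CA11 and CA12 were opposed, with CA12 at 4.18 ± 0.624 with GW8510, 17 ± 3.18 with siSRC4 and 11.1 ± 2.44 in the control, while CA8, at 0.207 ± 0.0306 with GW8510, 0.177 ± 0.0814 with siSRC4 and 0.46 ± 0.139 in the control, was lower in both. Of the collectins, lectins of innate immunity, COLEC12 was opposed at 3.27 ± 0.393 with GW8510, 8.73 ± 0.641 with siSRC4 and 5.48 ± 0.768 in the control, and COLEC10 was lower in both at 2.88 ± 0.376 with GW8510, 2.65 ± 0.636 with siSRC4 and 7.38 ± 1.2 in the control.

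**Figure D4:**
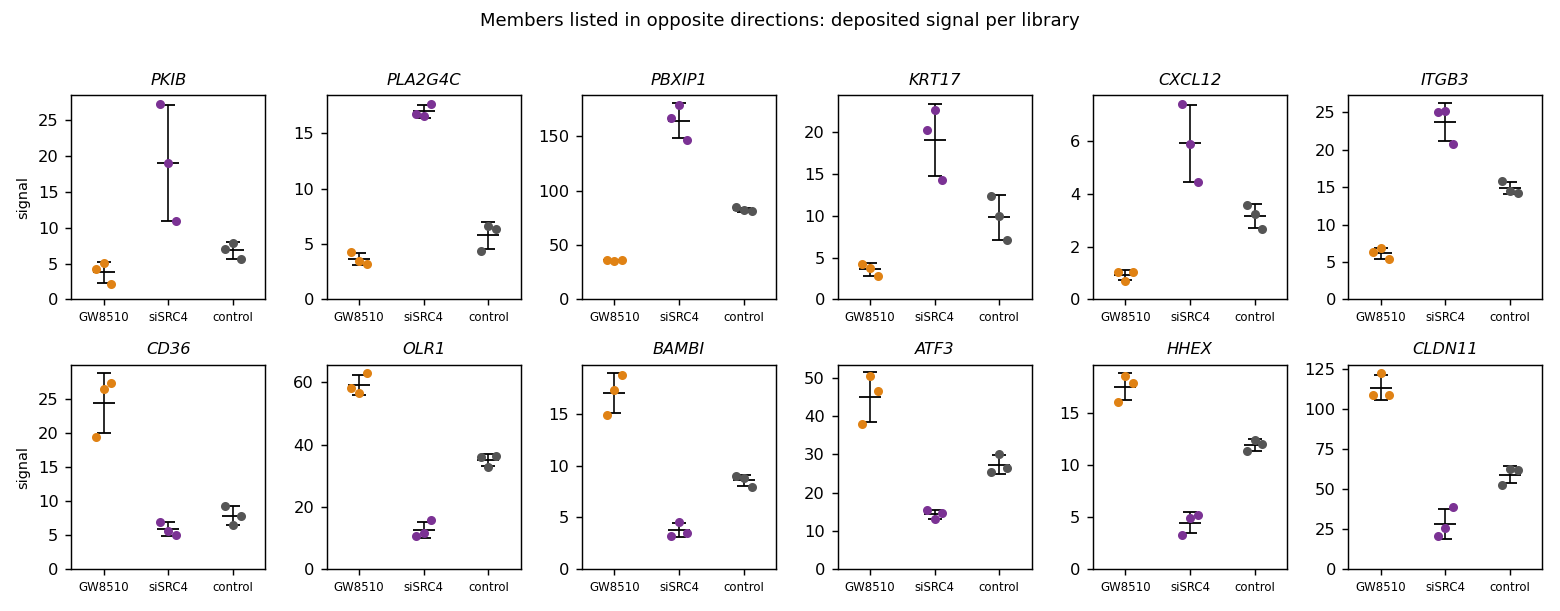
Deposited signal per library (points) with the group mean and SD (bars, n = 3) for 12 opposed genes, GW8510 left, siSRC4 middle and PD45 control right in each panel. In the 6 genes lower with GW8510, among them PBXIP1 and ITGB3, the control mean lies between those of the treatments, and the order is reversed in the 6 genes lower with siSRC4, among them CD36 and OLR1.

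The 32 genes higher with GW8510 and lower with siSRC4 included receptors for lipids. CD36, a scavenger receptor and fatty acid transporter, had 19.3, 26.4 and 27.2 with GW8510, 6.92, 5.65 and 4.93 with siSRC4 and 9.24, 6.51 and 7.73 in the control. OLR1, the LOX-1 receptor for oxidised LDL, had 58.3, 56.5 and 62.9 with GW8510, 10.6, 11.4 and 15.6 with siSRC4 and 36.1, 32.7 and 36.3 in the control. GW8510 libraries were far above the rest in both genes, and for CD36 the siSRC4 libraries reached into the control range. The ratio of mean signals with GW8510 to those with siSRC4 was 4.17 for CD36 and 4.71 for OLR1. BAMBI, a pseudoreceptor that dampens TGF-beta and BMP signals, had 14.9, 17.3 and 18.7 with GW8510, 3.24, 4.58 and 3.51 with siSRC4 and 8.97, 8.77 and 7.95 in the control. ATF3, a stress-induced transcription factor, had 37.8, 50.4 and 46.5 with GW8510, 15.3, 13 and 14.7 with siSRC4 and 25.3, 30.2 and 26.4 in the control. HHEX, a homeobox transcription factor of endoderm and endothelium, had 16.1, 18.6 and 18 with GW8510, 3.29, 4.9 and 5.2 with siSRC4 and 11.4, 12.5 and 12.1 in the control. All 3 had separate groups with the control in the middle. Of the 39 immediate-early and ERK feedback genes 17 are in the GW8510 table, 7 in the siSRC4 table and 3 in both, each in another class: FOSL2 higher in both, DUSP6 lower in both and ATF3 opposed.

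Of proteins of membrane layers and junctions, CLDN11, a claudin of tight junctions, had 108, 122 and 109 with GW8510, 20.8, 25.5 and 38.8 with siSRC4 and 52.6, 62.1 and 61.8 in the control, and PMP22, a membrane protein best known from myelin, had 102, 103 and 117 with GW8510, 29.4, 30.8 and 35.5 with siSRC4 and 49.9, 50.2 and 52.8 in the control. Both had 3 separate groups. MRGPRF, an orphan G-protein-coupled receptor, averaged 174 ± 20.3 with GW8510, 56.2 ± 7.77 with siSRC4 and 83.4 ± 2.98 in the control. MAOA, which breaks down monoamines, averaged 21 ± 2.03 with GW8510, 8.12 ± 0.511 with siSRC4 and 14.3 ± 1.85 in the control. ADAMTS8, a secreted metalloprotease, averaged 34.7 ± 11.4 with GW8510, 11.9 ± 2.76 with siSRC4 and 23.8 ± 3.34 in the control, and ADIRF, a factor linked to fat cell formation, 106 ± 7.76 with GW8510, 52.2 ± 13.8 with siSRC4 and 80.3 ± 8.98 in the control. SYNPO2, an actin-binding protein of muscle, was the other smooth muscle gene among the members, at 1.96 ± 0.365 with GW8510, 0.647 ± 0.106 with siSRC4 and 1.17 ± 0.185 in the control. CRIM1-DT and SEC61G-DT are RNAs transcribed divergently from their neighbours CRIM1 and SEC61G. Strand use in counting is not stated, so whether reads of the neighbour are counted with theirs is not known. Neither neighbour is in the GW8510 or the siSRC4 table. CRIM1-DT and SEC61G-DT averaged 47 ± 6.27 and 29.8 ± 2.25 with GW8510, 16.1 ± 1.33 and 8.79 ± 0.231 with siSRC4 and 26.3 ± 2.8 and 19.6 ± 2.46 in the control.

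Promoters of 1 gene from each opposed class are shown, the collagen receptor chain ITGA10, which had the lowest fold change with GW8510 in its class, and the lipid receptor CD36. They are the 250 bases before each start in RefSeq (GRCh38.p14), 5′ to 3′ on the gene's strand, for ITGA10 at chr1:145910051-145910300 (minus) and for CD36 at chr7:80601957-80602206 (plus). Capitals mark the TEAD element GGAATG, found on the opposite strand as CATTCC at 91 bases upstream of the ITGA10 start and 93 bases upstream of the CD36 start.
ITGA10: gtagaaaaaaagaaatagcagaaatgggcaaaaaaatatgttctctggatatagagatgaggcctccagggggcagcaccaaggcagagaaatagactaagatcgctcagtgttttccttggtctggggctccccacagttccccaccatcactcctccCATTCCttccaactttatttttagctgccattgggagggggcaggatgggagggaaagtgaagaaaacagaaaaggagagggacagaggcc
CD36: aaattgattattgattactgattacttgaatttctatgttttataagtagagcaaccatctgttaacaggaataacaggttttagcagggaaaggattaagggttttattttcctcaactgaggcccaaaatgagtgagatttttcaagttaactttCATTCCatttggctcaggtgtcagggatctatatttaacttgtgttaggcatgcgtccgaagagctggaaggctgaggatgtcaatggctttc
The element was in both windows, and it is in 11.9% of all promoters.

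The classes had different medians of base composition and length, which the rule did not use, and no test was made. The median GC content of the longest annotated transcript was 57.0% for genes higher in both and 39.8% for genes lower in both. It was 53.7% for genes lower with GW8510 and higher with siSRC4, and 46.6% for the reverse class. Median transcript lengths were 3950.5 bases for genes higher in both, 5287 for genes lower in both, 3340 for genes lower with GW8510 and higher with siSRC4, and 2426 for the reverse class. The same contrast is present in the whole tables: all genes in the GW8510 table had a median GC content of 55.1% where higher and 41.6% where lower, and those listed for siSRC4 had 55.4% where higher and 41% where lower. The part of base composition in the shared directions was not tested. The siSRC4 replicates 1 and 3 departed from each other in genes lower in both, by medians of 0.21 and -0.21, and in genes lower with GW8510 and higher with siSRC4, by 0.11 and -0.19 log2 units from the group mean. Control replicates 1 and 3 did so less, by 0.10 and -0.10 in the first class and by 0.08 and -0.11 in the second. Of the 322 members 300 are annotated as protein coding, and 13 have no gene name in the file.

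**Figure D5:**
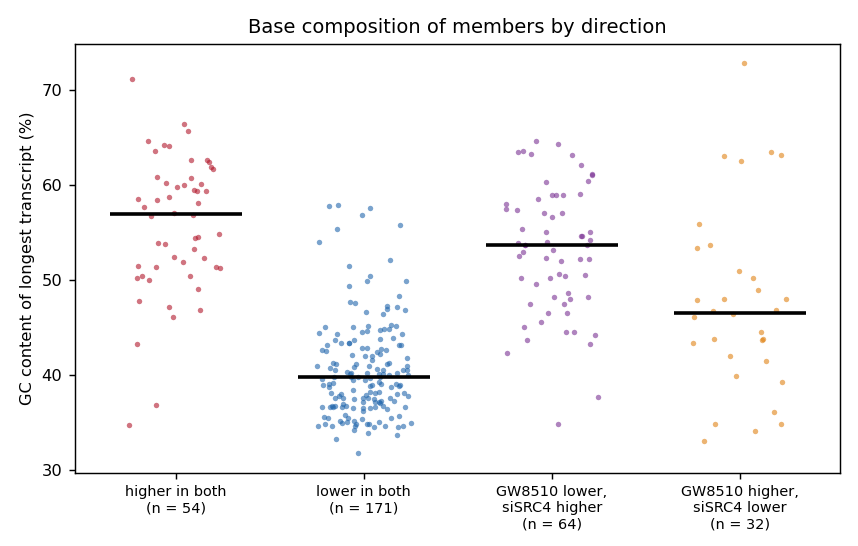
GC content of the longest GENCODE 29 transcript for members with a value, by the direction of listing, 1 point per gene, with the median as a black line. The medians are 57.0% for genes higher in both, 39.8% for genes lower in both, 53.7% for genes lower with GW8510 and higher with siSRC4, and 46.6% for the reverse class.

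No gene on the lists of mitosis, DNA replication, cyclins and CDKs or p53 targets is in both tables. Of 32 genes on the mitosis list, 15 are in the GW8510 table and 3 in the siSRC4 table. The 32 replication genes have 10 in the GW8510 table and 0 in the siSRC4 table, and the 33 cyclins, CDKs and CDK inhibitors have 8 in the GW8510 table and 3 in the siSRC4 table. The 25 p53 target and senescence genes have 3 in the GW8510 table and 2 in the siSRC4 table. Over all genes the authors tested, 11.8% are in the GW8510 table and 8.77% in the siSRC4 table, and how many genes of each list were tested is not known here. Over all 29 gene lists, 49 of 1019 genes are members, 28 lower in both, 8 higher in both, 8 lower with GW8510 and higher with siSRC4, and 5 the reverse.

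Some members also have values for the other siRNA, siSRC2, or for the younger PD30 cells, which share the PD45 control as well. The PD30 cells received DMSO and lipo3000 without NC. ANKRD1 averaged 0.343 ± 0.11 at PD30 and 3.13 ± 1.29 with siSRC2, both below the control, although siSRC4 and GW8510 lay above it. TRPA1, lower in both, averaged 28.5 ± 6.41 with siSRC2, above the 17.7 ± 3.1 of the control. LRRN3, also lower in both, averaged 32.3 ± 1.4 with siSRC2. ADAMTSL1, an ADAMTS-like matrix protein, averaged 4.42 ± 0.429 with GW8510, 9.9 ± 1.63 with siSRC4, 4.36 ± 0.232 with siSRC2 and 6.05 ± 0.681 in the control. In these 4 genes, picked for it after their values were seen, the siSRC2 and siSRC4 means stood on opposite sides of the control mean. They are not the only ones by the authors' deposited log2 fold changes of the 35 members in the siSRC2 table. Of the 14 lower in both, 7 were higher and 7 lower with siSRC2. Of the 8 higher in both, 7 were higher and 1 lower with siSRC2. Of the 6 lower with GW8510 and higher with siSRC4, 5 were higher and 1 lower with siSRC2. Of the 7 in the reverse class, 1 was higher and 6 lower with siSRC2.

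In 3 members the ratio of mean signals went against the direction in the authors' deposited table. ARMCX4 is listed as higher in both, yet its signals averaged 0.787 ± 0.17 with GW8510, 1.03 ± 0.457 with siSRC4 and 1.07 ± 0.501 in the control. DMD, dystrophin, is listed as lower in both, and had 5.32, 5.05 and 4.43 with GW8510, 5.23, 38.5 and 4.32 with siSRC4 and 8.46, 7.13 and 6.83 in the control. Replicate 2 of siSRC4 stands apart from all other libraries. LINC00475, listed as lower with siSRC4, averaged 14.6 ± 5.76 with siSRC4 and 14.3 ± 5.23 in the control. LCE2C, PSG1 and FAM156B have near-identical copies in the genome, so their values are uncertain in the same way as those of MT1L. RIPOR3-AS1 is an antisense gene, and its values are uncertain because strand use in counting is not stated.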

How the data were processed

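RNA was extracted with Trizol and sequenced by Illumina methods, per the labels' protocols. Per the submitters' processing notes, edgeR, DESeq2, RSEM, StringTie, HISAT2 and CASAVA were used, in roles not given, with the mouse build GRCm38, while all identifiers are human Ensembl ones, so no coordinates are taken from the files. The aligner settings and the counting of strand are not given in the sources used here. Per the file headers, each of the 4 deposited tables holds the authors' fold ratio, log2 fold change, p-value and adjusted p-value, and the normalised signal of 3 libraries per group. The 2 tables used here were matched to groups by their library names: the library columns named siSRC4 sit beside a mean column that bears the title siSRC2. The number of genes the authors tested was inferred from the ratio of adjusted to raw p in the first row.

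Means, SD and ratios were computed with Python 3.11.15 and pandas 2.3.3. GW8510 and siSRC4 libraries were compared with limma 3.58.1 (R 4.3.3) with a mean-variance trend on log2(signal + 1), a scale that understates changes of low genes, for the 291 members with a mean signal of at least 1. The p-values were two-sided and adjusted by Benjamini-Hochberg over those 291 genes. Of the 31 members below that limit, 18 were lower in both, 4 higher in both, 5 lower with GW8510 and higher with siSRC4, and 4 the reverse. The step was tested on simulated data. Same-numbered GW8510 and siSRC4 libraries deviated together (r = 0.308, 0.140 and 0.267 across genes, which are not independent). The main fit did not use this pairing. Its differences, intervals and adjusted p-values are the ones printed unless another setting is named. A fit with the replicate number as a block was run as an alternative. It called 20 same-direction genes, against 14 in the main fit. Other alternatives changed the pseudocount, the minimum signal, the libraries and the scaling.

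The members and the 29 gene lists were chosen with earlier results of these data known. Named genes are members on a list and those with a group mean of at least 5 that have the largest shared, opposed or direct differences, the direct differences nearest 0, a place in all 4 tables or a place nearest the limits. Transcript lengths and GC content are from GENCODE 29 (321 of 322 members), and promoters from RefSeq GRCh38.p14. Members that are not named are covered by counts only, and some results are not reported here.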

Additional observations from a re-analysis of the deposited data

How the results depend on the processing

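No gene called in the direct comparison changed direction. With rescaled signals 46 of the 204 same-direction differences changed sign, among them those of FOSL2 (-0.11, rescaled 0.038) and PIP4K2C (-0.021, rescaled 0.13), neither called, and the calls turned to 10 higher and 6 lower with GW8510, against 3 higher and 11 lower as deposited. The count of direct calls over all 291 genes was 101, 61 of 162 with a minimum mean signal of 5, and 98 to 125 when 1 library was left out. The opposed genes in these counts differ by construction, so their steadiness over settings is not read as a result. Among same-direction genes the count was 14. It was 9 with the higher minimum, 8 when a fold of at least 1.5 was also asked for, and 3 when adjusted over these genes only, a choice made after seeing the data. It was 11 to 38 with 1 library left out. Among genes higher in both, 4 were called, and 2 with the higher minimum, 7 with the control in the fit, 1 with the fold, 0 adjusted over same-direction genes only (10 had an unadjusted p under 0.05 in limma), and 2 to 5 with 1 library left out. Among genes lower in both, 10 were called, 3 adjusted over same-direction genes only, and 7 to 33 with 1 library left out, 33 being without siSRC4 replicate 3. The cause of these changes was not tested, beyond the fewer genes that a higher minimum or a fold leaves.

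Of the 14 genes, 11 were also called without GW8510 replicate 1, 8 without replicate 2 and 8 without replicate 3 of that group, and 12, 9 and 14 without siSRC4 replicates 1, 2 and 3. DDX10 lost its call, at differences of -0.48 to -0.35, without any 1 of these libraries except siSRC4 replicate 3. RGS5 lost it without GW8510 replicate 2 (-0.64) or 3 (-0.76) or siSRC4 replicate 2 (-0.54), CHN1 without GW8510 replicate 3 (0.44) or siSRC4 replicate 2 (0.44), TUFT1 without GW8510 replicate 1 (0.59) or 3 (0.48), CLN8 without GW8510 replicate 1 (-0.50) or 2 (-0.52), and LRRN3 without GW8510 replicate 2 (-0.53). With the replicate number as a block, 107 genes were called, 20 of them in the same direction, among which were all 14. ASNS, FABP4, PLCB4 and LINC00475 were among the 6 that gained a call there. No paired value of SRC was computed. The SRC ratio stayed between 0.522 and 0.579 with 1 library left out.

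With a fold of at least 2 in both tables, 7 genes were higher in both, 19 lower in both and 7 in each opposed class. With an adjusted p under 0.01 in both, 33 were higher in both and 19 were higher with GW8510 and lower with siSRC4. Read depth is unknown, so counting error could not be given, and 3 libraries per group limit what any test here can separate.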
